A study of Homo sapiens with 6 samples.

Results

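The tumour necrosis factor (TNF) ligand and receptor superfamily was examined in HaCaT, an immortalised keratinocyte line of human skin, after knockdown of TP63. Members were the genes whose symbol begins with TNFSF or TNFRSF and a number, the TRAF adaptors, and TNF, LTA, LTB, LTBR, FAS, FASLG, CD40, CD27, CD70, NGFR, EDA, EDAR and EDA2R. Of 53 protein-coding genes with such a symbol, 47 had an array probe set of their own and were analysed, out of 18404 genes tested. TNFSF12, TNFSF13, their read-through gene, TNFRSF6B, TNFRSF10C and TRAF2 were not analysed here. The members comprised 15 ligands, 26 receptors and 6 TRAF adaptors. The study measured messenger RNA on 6 arrays. The shTP63 group held 3 samples that received lentivirus with a short hairpin RNA against TP63, the gene of the epithelial transcription factor p63, and the shControl group held 3 samples that received a control vector. All cells were HaCaT, a single line, and RNA was taken 72 hours after lentiviral delivery. The labels do not say how many hairpins were used, and the level of TP63 was not analysed here, so every direction rests on the labels.

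The superfamily consists of mostly trimeric membrane or soluble ligands and of receptors with cysteine-rich extracellular repeats. Receptors with a cytoplasmic death domain can assemble caspase-activating complexes, whereas the others recruit TRAF proteins, which link them to NF-kappa-B and MAP kinase signalling. In skin, the EDA branch is needed for hair follicles, teeth and sweat glands, and TNF is a major cytokine of inflamed epidermis.

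Array values were intensities that the authors had normalised across arrays, and are given here as log2 intensities. The array medians were 7.54 to 7.57 in shTP63 and 7.44 to 7.47 in shControl. Across probe sets, the correlation r was 0.988 to 0.991 between an shTP63 and an shControl array and 0.996 to 0.998 between arrays with one label. The labels do not say that replicates were separate cultures, so the spread behind the p-values may be technical only. A level of 6.81, the 95th percentile of 359 olfactory receptor genes, served as a measure of background, below which differences are compressed. Of the 47 members, 12 lay under it in both groups. Lymphocytes carry many superfamily receptors. Of 10 measured lymphocyte markers 0 rose and 0 fell in limma (1 rose and 0 fell at an unadjusted p under 0.05), 7 lay under background in both groups, and their summed intensity was 841 to 879 in shTP63 and 823 to 870 in shControl. Of 10 myeloid and dendritic markers TYROBP rose and FCGR3A fell, with 8 under background in both groups and sums of 933 to 999 in shTP63 and 863 to 947 in shControl. Of 11 keratinocyte markers 2 rose (18.2%) and 4 fell (36.4%), against 16.4% and 25.1% of all genes, and none lay under background. In the 2 brightest of 5 bins of mean level, which held 10 of these markers, 43.0% and 44.0% of all genes fell. Among the falls were SFN, by 0.60 on the log2 scale, and KRT5, by 0.50. LAMB3, a laminin chain, rose by 0.33. The keratinocyte sums were 59953 to 60795 in shTP63 and 67108 to 69401 in shControl. Among fibroblast markers 2 of 8 rose and 1 fell, among endothelial markers 1 of 6 rose and 1 fell, and among melanocyte markers 1 of 6 rose and 0 fell (0 fell also at an unadjusted p under 0.05 in limma). Fibroblast sums were 1252 to 1318 in shTP63 and 1167 to 1204 in shControl. Endothelial sums were 1241 to 1308 and 1180 to 1229, and melanocyte sums 826 to 858 and 799 to 811, in the same order. Unlike the lymphocyte and myeloid sums, the keratinocyte, fibroblast, endothelial and melanocyte sums did not overlap between groups. The fibroblast, endothelial and melanocyte sums were higher in shTP63, as were the array medians (7.54 to 7.57 against 7.44 to 7.47). Under background in both groups lay 3 of the 8 fibroblast, 4 of the 6 endothelial and 3 of the 6 melanocyte markers. Whether these sums differed beyond the array medians was not tested, so no gain of other cell types can be read from them. The part of the cell type markers in the superfamily's differences was not tested.

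Ligands and receptors of the superfamily were mostly higher after TP63 knockdown or did not pass the test. At an adjusted p of 0.05 in limma's moderated test over all genes, 21 of the 47 members rose (44.7%) and 2 fell (4.26%). Over all genes, 16.4% rose and 25.1% fell. The members called in either direction made up 48.9% of the superfamily, against 41.5% of all genes. The median difference, shTP63 minus shControl, was 0.14 on the log2 scale for members and -0.01 for all genes. A log2 difference of at least 0.4 together with a call was seen in 12 members (25.5%), against 12.0% of all genes. The values of both groups did not overlap in 28 members (59.6%), against 51.4% of all genes. The 3 shTP63 values all lay above the 3 shControl values in 24 of these 28, a pattern of 20.9% of all genes. With each array centred on its own median, 14 members rose (29.8%) and 8 fell (17.0%), against 9.68% and 43.1% of all genes. Centring moved the median difference of all genes to -0.12, while that of the members was 0.04.

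**Figure D1:**
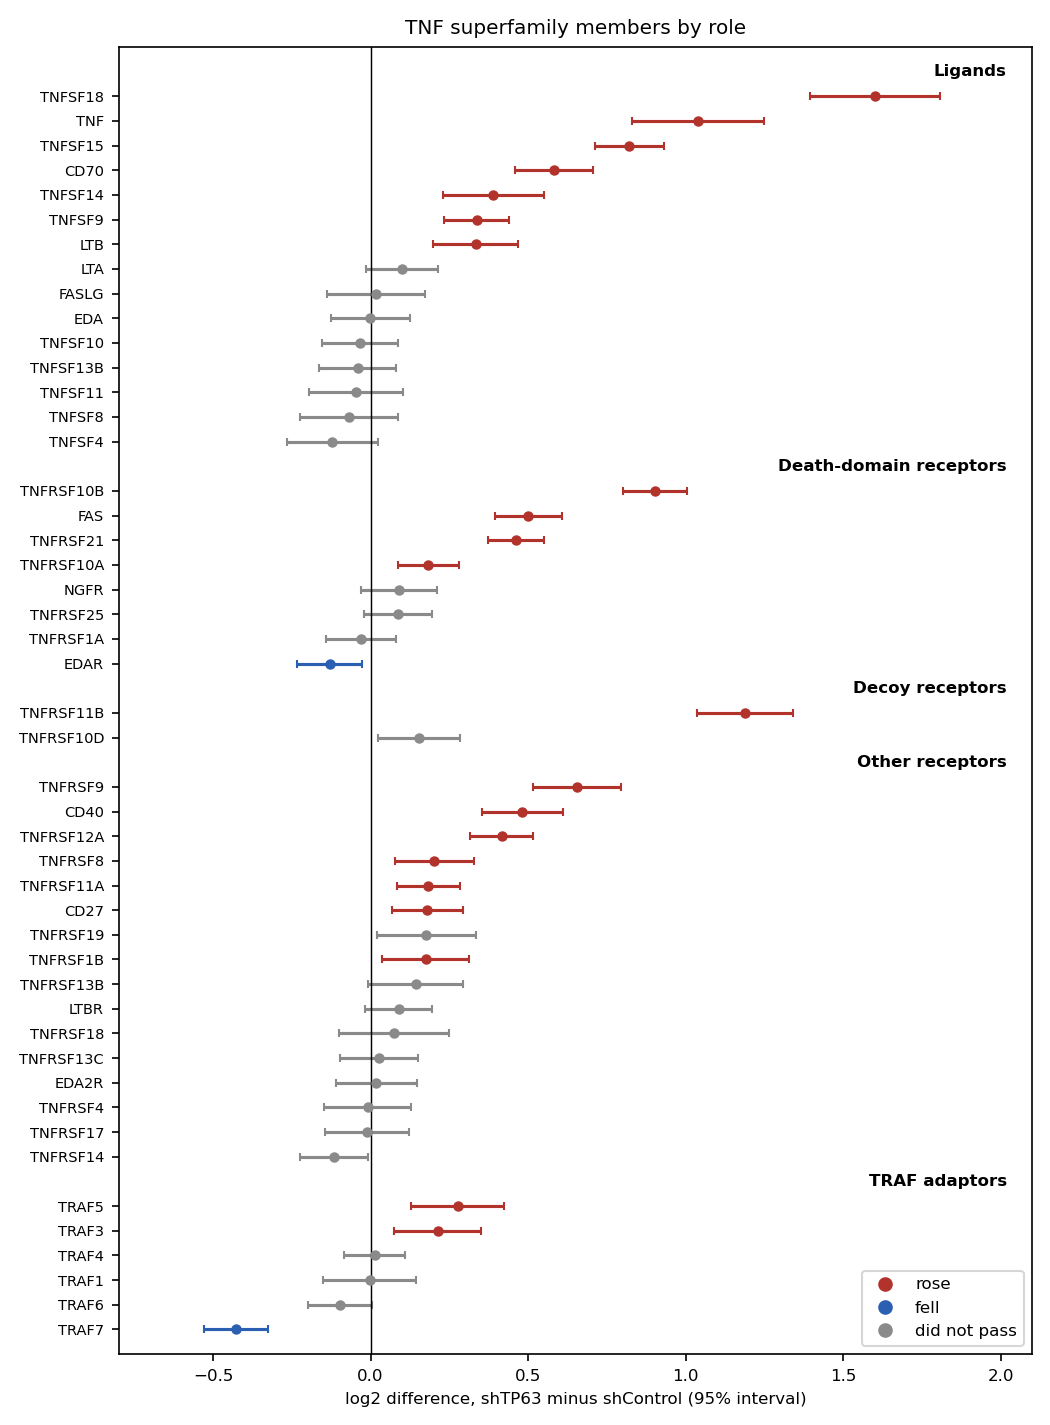
The log2 difference, shTP63 minus shControl, of each of the 47 members is plotted by role, with its 95% interval from limma. Red members rose, blue ones fell and grey ones did not pass; TNFSF18, TNFRSF11B and TNF have differences above 1, and TRAF7 and EDAR are the 2 that fell.

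Among the 15 ligands 7 rose and 0 fell in limma, also at an unadjusted p under 0.05, and the risen ones were TNFSF18, TNF, TNFSF15, CD70, TNFSF14, TNFSF9 and LTB. TNFSF18, the ligand of the T cell costimulatory receptor GITR, had the largest difference of any member. Its log2 intensities were 6.87, 6.68 and 6.75 in shTP63 samples, against 5.04, 5.38 and 5.07 in shControl samples. The groups lay far apart, with a difference of 1.60 ± 0.091 (SE, 3 samples a group), or 3.04-fold, and an adjusted p of 3.97e-06 in limma. Both group means, 6.77 and 5.16, were under the background level, so the size of this rise is uncertain. Its receptor gene TNFRSF18 had values of 8.68, 8.80 and 8.61 in shTP63 samples and 8.75, 8.66 and 8.47 in shControl samples. These overlapped, and the difference of 0.07 had a 95% interval from -0.10 to 0.25.

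TNF, the cytokine that names the family, rose as well. It was at 7.80, 7.97 and 8.22 in shTP63 samples and at 6.98, 6.91 and 6.98 in shControl samples. All shTP63 values lay above the shControl values, although the shTP63 samples were spread more widely (SD 0.21) than the shControl samples (SD 0.042). The difference was 1.04 ± 0.092 (SE), or 2.06-fold, with a limma adjusted p of 3.75e-05. TNFRSF1A, the broadly expressed TNF receptor with a death domain, had values of 11.33, 11.42 and 11.46 in shTP63 samples and 11.48, 11.41 and 11.42 in shControl samples. They overlapped (difference -0.03, 95% interval -0.14 to 0.08, limma adjusted p = 0.663). TNFRSF1B, the receptor without a death domain, reached 7.27, 7.46 and 7.28 in shTP63 samples and 7.22, 7.11 and 7.16 in shControl samples. Its groups did not overlap, but the difference of 0.17 ± 0.061 (SE) passed only narrowly (limma adjusted p = 0.0467) and lost its call in 9 of 15 alternatives, among them centring on the array median.

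TNFSF15, which encodes the cytokine TL1A, was at 10.84, 10.93 and 10.86 in shTP63 samples and at 10.11, 10.04 and 10.00 in shControl samples. The groups were well separated, at 0.82 ± 0.048 (SE) or 1.77-fold (limma adjusted p = 4.82e-06). Its death-domain receptor gene TNFRSF25 gave 8.76, 8.79 and 8.81 in shTP63 samples and 8.78, 8.67 and 8.66 in shControl samples, which overlapped (difference 0.09, 95% interval -0.02 to 0.19). CD70, the ligand of the lymphocyte receptor CD27, had 9.69, 9.69 and 9.72 in shTP63 samples, against 9.18, 9.01 and 9.18 in shControl samples. No shTP63 value came near the shControl values, and the difference was 0.58 ± 0.055 (SE), or 1.50-fold (limma adjusted p = 5.04e-05). CD27 itself was under background in both groups, with 6.60, 6.48 and 6.53 in shTP63 samples and 6.41, 6.35 and 6.31 in shControl samples. Its difference of 0.18 passed (limma adjusted p = 0.0167), a call lost in 7 of 15 alternatives.

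The other 3 risen ligands had smaller differences and kept their calls in all 16 alternatives. TNFSF14 encodes LIGHT, a ligand of the herpesvirus entry mediator TNFRSF14 and of the lymphotoxin beta receptor LTBR. It rose by 0.39 ± 0.071 (SE, limma adjusted p = 0.00194), with 7.68, 7.81 and 7.81 in shTP63 samples and 7.53, 7.34 and 7.27 in shControl samples. TNFSF9, a costimulatory ligand, rose by 0.34 ± 0.045 (limma adjusted p = 0.000345), with 10.86, 10.94 and 10.91 in shTP63 samples and 10.56, 10.53 and 10.61 in shControl samples. LTB, which forms a membrane heterotrimer with LTA, rose by 0.33 ± 0.060 (limma adjusted p = 0.0018). Its other probe set differed by 0.39 in the same direction. LTA differed by 0.10 and its other probe set by 0.09, neither of which passed. The receptors LTBR (difference 0.09, limma adjusted p = 0.165) and TNFRSF14 (-0.12, limma adjusted p = 0.0806) did not pass either. For TNFRSF14 the 3 shTP63 values all lay below the shControl values.

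TNFSF10 encodes TRAIL, the death ligand of TNFRSF10A and TNFRSF10B. It had values of 13.06, 12.97 and 12.92 in shTP63 samples and 13.05, 13.04 and 12.95 in shControl samples. These overlapped, and the 95% interval of its difference ran from -0.15 to 0.09. FASLG, the Fas ligand, was under background in every sample, with 6.21, 6.30 and 6.09 in shTP63 samples and 6.30, 6.13 and 6.13 in shControl samples. EDA, TNFSF4, TNFSF8, TNFSF11 and TNFSF13B were likewise under background by their means in both groups, with differences of -0.12 to -0.00, and none passed. TNFSF11 encodes the osteoclast factor RANKL, TNFSF13B the B cell factor BAFF, and TNFSF4 the T cell ligand OX40L. An absence of change in these dim genes cannot be read from the arrays.

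**Figure D2:**
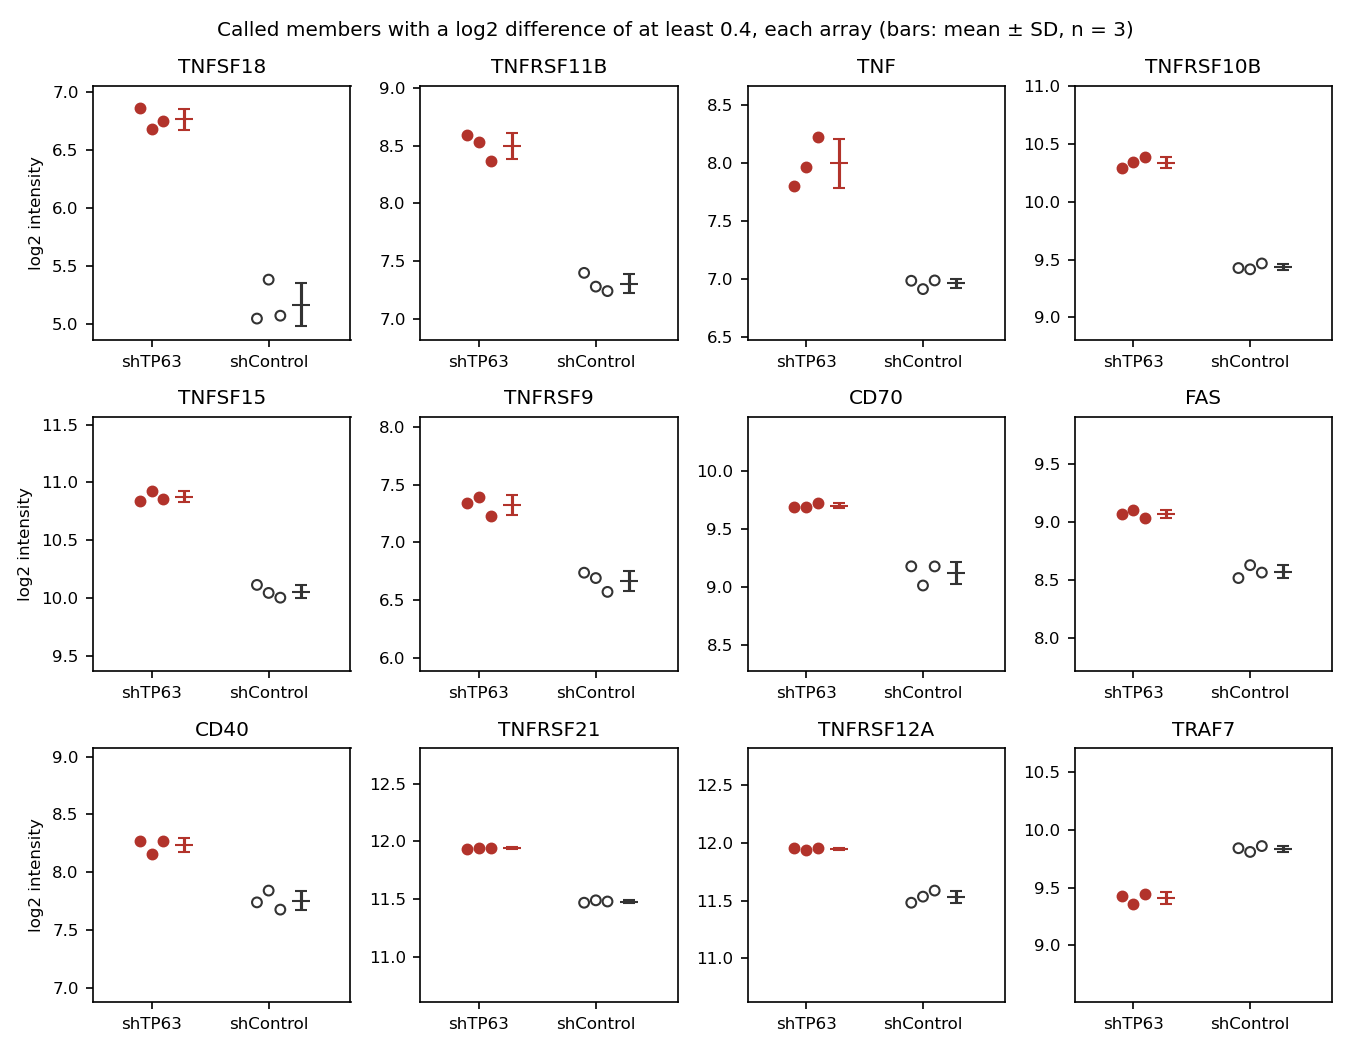
Log2 intensity on each array is plotted for the 12 called members with a log2 difference of at least 0.4 up or down, shTP63 as filled red points and shControl as open points, with mean ± SD beside them; every panel spans the same number of log2 units. The 3 shTP63 points lie above the 3 shControl points in all panels but TRAF7, where they lie below.

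Of the 8 receptors with a death domain, TNFRSF10B, FAS, TNFRSF21 and TNFRSF10A rose and EDAR fell. TNFRSF10B, a TRAIL receptor that triggers apoptosis, was at 10.29, 10.34 and 10.39 in shTP63 samples, against 9.43, 9.42 and 9.47 in shControl samples. Both groups were tight, and the difference of 0.90 ± 0.045 (SE), or 1.87-fold, had the smallest adjusted p of the members (2.12e-06 in limma). TNFRSF10A, the other death-inducing TRAIL receptor, had 9.07, 9.04 and 9.05 in shTP63 samples and 8.82, 8.88 and 8.91 in shControl samples. Its groups did not overlap at a difference of 0.18 ± 0.043 (limma adjusted p = 0.00766), and its call was lost in 1 of 16 alternatives, after centring on the array median, where the difference was 0.08. TNFRSF10D, a TRAIL receptor with a truncated death domain, had 7.93, 7.98 and 8.03 in shTP63 samples and 7.91, 7.86 and 7.72 in shControl samples. They did not overlap, but its difference of 0.15 did not pass (limma adjusted p = 0.0597).

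FAS, the receptor of the Fas ligand, was at 9.07, 9.10 and 9.03 in shTP63 samples and at 8.51, 8.63 and 8.56 in shControl samples. The groups were separate, at 0.50 ± 0.047 (SE) or 1.42-fold (limma adjusted p = 4.84e-05). TNFRSF21, which encodes death receptor 6, had almost the same value on the arrays of a group, 11.94, 11.95 and 11.95 in shTP63 samples and 11.47, 11.49 and 11.48 in shControl samples. Its difference was 0.46 ± 0.040 (SE, limma adjusted p = 3.1e-05). NGFR, the low-affinity neurotrophin receptor of basal keratinocytes, did not pass at 0.09 (95% interval -0.03 to 0.21).

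EDAR, the receptor of ectodysplasin A in hair and tooth placodes, had 8.30, 8.25 and 8.37 in shTP63 samples and 8.43, 8.44 and 8.44 in shControl samples. The shTP63 values all lay below, so it fell by 0.13 (log2, SE 0.045; limma adjusted p = 0.0477). This call was lost in 9 of 16 alternatives, among them cyclic loess and leaving out any 1 of 5 arrays. EDARADD, the adaptor of EDAR, is no member and fell more, by 0.58 (SE 0.054, limma adjusted p = 5.01e-05). Its values were 8.74, 8.65 and 8.64 in shTP63 samples and 9.34, 9.21 and 9.21 in shControl samples, and it kept its call in all 16 alternatives. EDA2R, the receptor of the other EDA isoform, was under background (difference 0.02, limma adjusted p = 0.831).

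TNFRSF11B encodes osteoprotegerin, a secreted decoy that binds RANKL and TRAIL. It had the largest difference among receptors, with 8.59, 8.53 and 8.37 in shTP63 samples and 7.40, 7.28 and 7.24 in shControl samples. The lowest shTP63 value was well above the highest shControl value, and the difference of 1.19 ± 0.067 (SE) amounted to 2.28-fold (limma adjusted p = 4e-06). TNFRSF11A, the signalling receptor of RANKL, had 7.81, 7.87 and 7.84 in shTP63 samples and 7.69, 7.61 and 7.67 in shControl samples. Its groups did not overlap, and its rise of 0.18 lost its call under 2 scalings, centring on the array median and another quantile normalization. The ligand gene TNFSF11 averaged 5.88 ± 0.12 in shTP63 samples and 5.93 ± 0.06 in shControl samples (SD, n = 3 each), both under background, and the groups overlapped.

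Among the other 16 receptors 7 rose and 0 fell in limma, and at an unadjusted p under 0.05 8 rose and 1 fell. TNFRSF9, a costimulatory receptor of T cells and the receptor of TNFSF9, was at 7.34, 7.40 and 7.23 in shTP63 samples and at 6.74, 6.69 and 6.57 in shControl samples. It rose by 0.65 ± 0.061 (SE, limma adjusted p = 4.96e-05), and its shControl mean of 6.67 was under background. CD40, through which T cells activate antigen-presenting and epithelial cells, was at 8.27, 8.16 and 8.27 in shTP63 samples and at 7.74, 7.84 and 7.68 in shControl samples. Its groups were separate, at 0.48 ± 0.056 (SE), or 1.40-fold (limma adjusted p = 0.000163). TNFRSF12A, the receptor of TWEAK, a cytokine of tissue repair, was at 11.96, 11.94 and 11.95 in shTP63 samples and at 11.48, 11.53 and 11.59 in shControl samples. Its rise was 0.42 ± 0.044 (limma adjusted p = 9.96e-05). TNFRSF8, known as the lymphoma antigen CD30, rose by 0.20 (limma adjusted p = 0.0167), a call lost in 6 of 16 alternatives. The B cell receptors TNFRSF13B, TNFRSF13C and TNFRSF17 and the T cell receptor TNFRSF4 did not pass, with differences of -0.01 to 0.14. Of these, TNFRSF17 was under background in both groups. TNFRSF19, an orphan receptor of embryonic skin appendages, did not pass at 0.18 (limma adjusted p = 0.0711).

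Among the 6 TRAF adaptors TRAF5 and TRAF3 rose and TRAF7 fell. TRAF7, a ubiquitin ligase that binds the kinase MEKK3, had 9.42, 9.35 and 9.45 in shTP63 samples and 9.84, 9.81 and 9.86 in shControl samples. Every shTP63 value was below the shControl values, and TRAF7 fell by 0.43 (log2, SE 0.045; limma adjusted p = 9.05e-05). TRAF5 was under background in both groups, with 6.22, 6.18 and 6.28 in shTP63 samples and 5.85, 6.08 and 5.92 in shControl samples, and rose by 0.28 ± 0.065 (limma adjusted p = 0.00753). TRAF5 lost this call after centring on the array median and after another quantile normalization, with a difference of 0.17 under both (limma adjusted p = 0.0615 and 0.0764). TRAF3, which holds the alternative NF-kappa-B kinase in check, rose by 0.21 ± 0.061 (limma adjusted p = 0.0203). Its values were 8.32, 8.47 and 8.48 in shTP63 samples and 8.27, 8.12 and 8.25 in shControl samples, and its call was lost in 6 of 16 alternatives, both of these scalings among them. TRAF6, which serves interleukin-1 and Toll-like receptors, did not pass at -0.10 (limma adjusted p = 0.12), although its shTP63 values all lay below its shControl values. TRAF1, under background in both groups, differed by -0.00, and TRAF4 differed by 0.01.

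Known ligands and receptors were also set side by side as pairs. The 24 pairs had both partners measured but do not cover every known pair, as TNFSF10 with TNFRSF11B was left out. Among the 24, the ligand rose in 9 and the receptor in 10. Both genes rose in 3, the ligand without the receptor in 6, the receptor without the ligand in 7, and neither in 8. In the pairs of FASLG, EDA, TNFSF4, TNFSF8, TNFSF11 and TNFSF13B the ligand was under background in both groups. A ligand counted as not risen there may be one that the arrays could not read, so this split is uncertain. The 3 pairs were TNF with TNFRSF1B, CD70 with CD27 and TNFSF9 with TNFRSF9. Of these 6 genes TNFRSF1B and CD27 lost their calls in several alternatives, so that TNFSF9 and TNFRSF9 were the pair in which both calls held in all alternatives run. Differences between the partners of a pair were not tested.

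**Figure D3:**
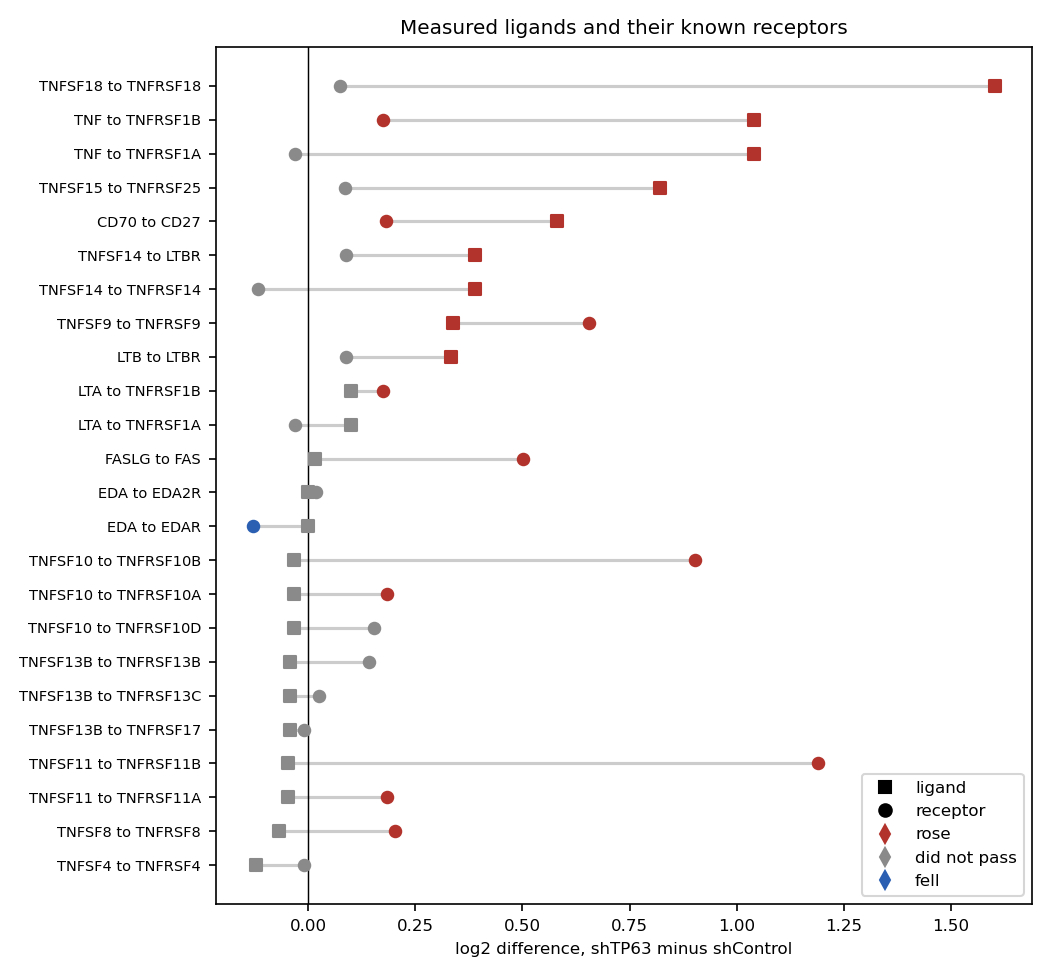
Each line joins the log2 difference, shTP63 minus shControl, of a ligand (square) with that of one of its known receptors (circle) for 24 pairs, ordered by the ligand. In the rows of the 7 risen ligands the squares lie to the right of the receptors except for TNFSF9, and in the rows of FASLG, TNFSF10 and TNFSF11 the receptors FAS, TNFRSF10B and TNFRSF11B lie to the right.

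Several members are neighbours in the genome, with no other protein-coding gene of the reference table between them. On chromosome 19, TNFSF9, CD70 and TNFSF14 lie in a row and all rose (0.34, 0.58 and 0.39). On chromosome 6, LTA, TNF and LTB lie in a row, of which TNF (1.04) and LTB (0.33) rose, while LTA (0.10) did not pass. On chromosome 1, TNFSF18 lies between FASLG and TNFSF4, and its difference of 1.60 stood beside 0.02 for FASLG and -0.12 for TNFSF4, which did not pass and whose probe sets were under background. On chromosome 9, TNFSF15 rose by 0.82 while the adjacent TNFSF8, under background in both groups, differed by -0.07 and did not pass. In the cluster of TRAIL receptor genes, TNFRSF10D and TNFRSF10A are adjacent and TNFRSF10B lies 1 gene away, with differences of 0.15, 0.18 and 0.90. Gene coordinates are left out, as no source used here names the genome build of the array.

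Promoter letters are shown for 4 of the risen members whose window of 250 bases before the start holds a match to a motif searched for. The windows of CD27, FAS and TRAF3, which also rose, hold matches too and are counted below but not printed. Sequences and coordinates come from RefSeq, build GRCh38.p14, are written 5′ to 3′ along the gene's strand, and carry matches in capitals. The motifs were TGANTCA (AP-1, which reads the same on both strands), GGG and TTCC with 3 bases between (NF-kappa-B) and CNTG repeated after 6 bases (p53 family), searched on both strands, where N is any base. TNFRSF9 (chr1:7940840-7941089, minus strand) holds overlapping NF-kappa-B matches on opposite strands and an AP-1 match, TNFSF15 (chr9:114792531-114792780, minus strand) an AP-1 and a p53 family match, LTB (chr6:31582426-31582675, minus strand) an NF-kappa-B match, and TNFSF14 (chr19:6670161-6670410, minus strand) an AP-1 match.
TNFRSF9: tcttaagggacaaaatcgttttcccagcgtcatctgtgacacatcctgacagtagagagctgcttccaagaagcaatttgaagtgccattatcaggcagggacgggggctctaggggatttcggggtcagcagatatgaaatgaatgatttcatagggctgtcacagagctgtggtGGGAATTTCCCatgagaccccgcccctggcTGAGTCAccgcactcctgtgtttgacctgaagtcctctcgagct
TNFSF15: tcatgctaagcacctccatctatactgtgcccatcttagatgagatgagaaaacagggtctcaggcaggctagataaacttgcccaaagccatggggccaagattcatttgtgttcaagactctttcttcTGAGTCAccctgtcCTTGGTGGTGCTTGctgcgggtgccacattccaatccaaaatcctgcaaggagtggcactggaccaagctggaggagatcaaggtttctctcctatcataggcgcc
LTB: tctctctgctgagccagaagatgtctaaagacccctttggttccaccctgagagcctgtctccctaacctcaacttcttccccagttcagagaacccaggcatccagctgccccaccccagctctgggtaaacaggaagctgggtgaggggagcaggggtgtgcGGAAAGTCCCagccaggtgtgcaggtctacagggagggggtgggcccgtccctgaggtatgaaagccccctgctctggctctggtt
TNFSF14: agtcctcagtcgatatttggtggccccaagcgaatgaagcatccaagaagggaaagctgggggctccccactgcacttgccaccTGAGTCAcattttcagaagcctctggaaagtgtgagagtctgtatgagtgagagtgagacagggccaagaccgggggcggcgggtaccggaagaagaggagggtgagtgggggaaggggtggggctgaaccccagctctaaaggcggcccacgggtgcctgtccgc
Windows were given for 33 members, 15 of them risen. The AP-1 letters were found for 5 of these 15 (CD27, FAS, TNFRSF9, TNFSF14 and TNFSF15), against 8.06% of all 27305 genes with a window. The matches of CD27 and FAS read TGAATCA, and those of TNFRSF9, TNFSF14 and TNFSF15 read TGAGTCA. The share of all genes counts any base at N. NF-kappa-B letters were found for 3 of the 15 (LTB, TNFRSF9 and TRAF3), against 6.87% of genes, and p53 family letters for 2 (FAS and TNFSF15), against 14.9% of genes. Among the 18 members with a window that did not rise, AP-1 letters were found for 1, NF-kappa-B letters for 1 and p53 family letters for 5. These are matches of letters and no measure of binding. The windows of TNFSF18 and TNF, 2 of the largest rises, hold no match to these letters.

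A list of genes known to respond to TNF, chosen with earlier results of these data known, was mostly higher. Of 24 measured TNF-responsive genes, 16 rose (66.7%) and 3 fell (12.5%), against 16.4% and 25.1% of all genes. Their median difference was 0.33, against -0.01 for all genes. The 3 with the smallest adjusted p were the chemokine CXCL8 (2.30), the prostaglandin synthase PTGS2 (1.90) and TNFAIP3 (1.67), a ubiquitin-editing inhibitor of NF-kappa-B, as log2 differences. TRAF1, a member of the superfamily set and also of this list, was under background in both groups and did not pass. The lists share genes: TNFAIP3 and NFKBIA are also on the canonical NF-kappa-B list, and CFLAR, which fell, is also on the death-signalling list. Of 4 genes of the alternative NF-kappa-B branch, which LTBR and CD40 use, NFKB2 (0.41), the kinase MAP3K14 (0.18) and RELB (0.17) rose, with limma adjusted p of 0.00015, 0.00772 and 0.0261, and OTUD7B did not pass. The call of RELB was lost in 8 of 16 alternatives, and that of MAP3K14 in 2, centring on the array median and another quantile normalization. Of 20 genes of the ubiquitin and canonical NF-kappa-B step, 2 rose and 9 fell. Of these 20 genes, 18 were in the 2 brightest of 5 bins of mean level, where falls were frequent in general. In the brightest bin 25.3% of all genes rose and 44.0% fell, and in the next 18.5% rose and 43.0% fell, so the falls of the list (45.0%) were near the share of similarly bright genes. TNFAIP3 and the inhibitor NFKBIA (0.39) were those that rose, while OTULIN, a deubiquitinase of linear chains, fell by 0.35 (SE 0.05, limma adjusted p = 0.000514).

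Of 12 measured death-signalling genes, 2 rose and 7 fell, and their median difference was -0.21. CFLAR, which encodes the caspase-8 inhibitor c-FLIP, fell by 0.58 (log2, SE 0.065; limma adjusted p = 0.000125). It was at 7.34, 7.43 and 7.20 in shTP63 samples and at 7.83, 7.93 and 7.94 in shControl samples, which did not overlap. The stress kinase gene MAP3K5 fell by 0.47 and MLKL, the executor of necroptosis, by 0.27. Both rises, CASP10 (0.21) and RIPK3 (0.13), were chosen with their values in view, and their calls were lost in 2 and 13 of 16 alternatives. Of 7 genes of the JNK and p38 branch, 0 rose and 5 fell in limma (0 and 6 at an unadjusted p under 0.05), among them MAP2K4 (-0.36), MAPK9 (-0.33) and MAP3K1 (-0.25). The falls made up 58.3% and 71.4% of these small lists, against 25.1% of all genes. Of the death-signalling list 7 of 12 genes and of the JNK and p38 list 5 of 7 were in the 2 brightest bins. There 43.0% and 44.0% of all genes fell.

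Of 9 proteases and cofactors that release ligands or shed receptors, 7 rose (77.8%) and 0 fell in limma. The counts were the same at an unadjusted p under 0.05. Over all genes 16.4% rose. Of the 9 genes, 8 were in the 2 brightest bins, where 18.5% and 25.3% of all genes rose. The median difference was 0.36, and the list was chosen with earlier results of these data known. ADAM17, the enzyme that releases soluble TNF, was at 10.76, 10.85 and 10.80 in shTP63 samples and at 10.33, 10.37 and 10.30 in shControl samples. FURIN, which activates ADAM proteases and cleaves EDA, rose by 0.66 ± 0.052 (SE), ADAM17 by 0.47 ± 0.045 and RHBDF2, the partner that brings ADAM17 to the cell surface, by 0.47 ± 0.052, with limma adjusted p of 2.06e-05 to 0.00012. Of 11 genes around the EDA branch 3 rose and 3 fell, 27.3% each, against 16.4% and 25.1% of all genes. Of these 11, 7 were in the 2 brightest bins, where 43.0% and 44.0% of all genes fell. Besides EDARADD, the transcription factor gene FOXQ1 fell by 0.55 and the convertase gene PCSK5 rose by 0.43. Of 9 NGFR partners, MAGED1 (0.36) rose and BDNF (-0.28, under background in both groups) fell, while NTF4 (-0.19, limma adjusted p = 0.0632) did not pass. The 2 calls made up 22.2% of these partners, against 41.5% of all genes. Of 9 stress genes of the p53 family, 0 rose and 4 fell (44.4%) in limma (1 and 4 at an unadjusted p under 0.05). ZMAT3 (-0.57), SESN1 (-0.44) and MDM2 (-0.36) were among the falls. Of these 9 genes, 6 were in the 2 brightest bins, where 43.0% and 44.0% of all genes fell, near the share of the list. FAS and TNFRSF10B, also known as targets of p53, rose.

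**Figure D4:**
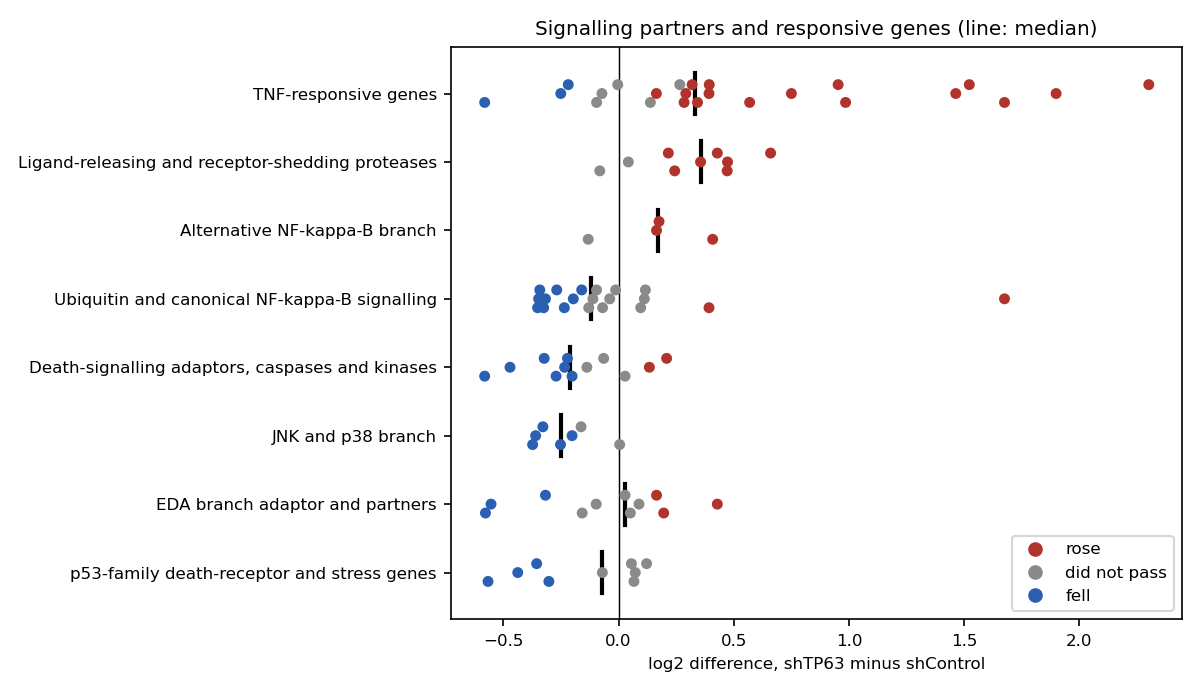
Each point is the log2 difference, shTP63 minus shControl, of 1 gene of a list of signalling partners or responsive genes, red where it rose, blue where it fell and grey where it did not pass, with a black line at the median of the list. Medians are 0.33 for TNF-responsive genes and 0.36 for proteases, and -0.21 for death-signalling genes and -0.25 for the JNK and p38 branch.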

How the data were processed

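Messenger RNA was measured in 6 samples, grouped by their titles. Per the submitters' processing notes, the authors made the values with RMA in R 2.15.1, and they were deposited as linear intensities. RMA, robust multi-array averaging, corrects background, equalises the arrays and summarises probe sets, which can remove shifts shared by a whole array; the array medians of the deposited values still differed between the groups. The tests had assumed log2 data, so log2 of the deposited intensities was used. Each array held 32321 probe sets. The platform annotation gave 19158 of them 1 gene, 1388 several genes (not used) and the rest none. Symbols were updated through Entrez identifiers in RefSeq of GRCh38.p14. For each gene the probe set with the highest mean was used. The test was that of limma 3.58.1 (lmFit and eBayes) under R 4.3.3, two-sided and without covariates; p-values were adjusted by Benjamini-Hochberg over 18404 genes. The fit was tested on simulated data. The 3 arrays a group limit the precision (median SE of a gene 0.053). Members, lists and roles were chosen with earlier results of these data known. No protein sequences were used here. Every member is accounted for. Values in every sample are given for called members with a log2 difference of at least 0.4 and for partners of these, and up to 3 members of each list are named by smallest adjusted p. The alternatives tried were a block on the replicate number, 4 other scalings, leaving out the dimmest 40% of genes, averaged probe sets, a trended robust prior, array weights, a threshold of 0.01 and each array left out in turn.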

Additional observations from a re-analysis of the deposited data

How the results depend on the processing

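Of the 23 called members 15 kept their call in all alternatives run, and 8 lost it in at least 1. The number that rose ranged from 14 to 24. The number that fell, 2 in the comparison above, was 1 with the replicate number as a block, after cyclic loess, after quantile normalization of probe sets with 1 gene and at a threshold of 0.01, 6 after another quantile normalization, 8 after centring on the array median, and 1 to 2 with 1 array left out. Centring on the array median gave 1782 risen and 7932 fallen genes, against 3015 and 4619. Of the 24 members that did not pass, 11 gained a call in at least 1 alternative, and 0 called members changed sign. Over the alternatives the TNF-responsive list had 13 to 18 rises, the protease list 6 to 7, and the death-signalling list 5 to 9 falls. The labels do not say whether samples with the same replicate number share more than that number. Their deviations correlated at r of -0.15, -0.04 and 0.13, and 2 of 6 samples correlated best with their own number. With 3 arrays a group, these values cannot tell whether the numbers mark pairs. With the number as a block 20 members rose and 1 fell. TNFSF18, TNF and TNFRSF9 were among the dimmest 40% of genes, so they have no value under that filter. What limits precision is 3 arrays a group and, for 12 members, signal under background.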
